A study of Sus scrofa with 2 samples.

Results

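STAR, CYP11A1, HSD3B1 and FDX1 encode the proteins that carry cholesterol into the mitochondrion and convert it to progesterone. Their 14 probes were found on both arrays of the series by transcript accession, and these 4 genes were among 2363 named genes with a measured difference. Ovarian tissue of 1 breed was hybridised to each single-colour porcine Agilent array, so that 1 array stood for conventional pigs (Yorkshire sows, the conventional array) and 1 for minipigs (Midget minipigs). All animals were females on day 15 of the estrous cycle, when the corpus luteum regresses, and according to the methods they were 10 months old, had completed several cycles and had their luteal tissue cut out before RNA was extracted. The methods name 5 animals per breed and do not say whether each array received pooled RNA.

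Progesterone is made from cholesterol in few steps. STAR (steroidogenic acute regulatory protein) moves cholesterol from the outer to the inner mitochondrial membrane, which is the step that limits the rate of acute steroid output. There CYP11A1, the side-chain cleavage cytochrome P450, turns cholesterol into pregnenolone with electrons that ferredoxin reductase passes on through FDX1, a small iron-sulfur protein. HSD3B1, a 3-beta-hydroxysteroid dehydrogenase, then converts pregnenolone into progesterone. In the ovary these genes are known to be active in theca cells and in the granulosa cells of large follicles, and they are most active in the corpus luteum.

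The breed labels of the deposited files contradict each other. In the deposited table of normalised log2 values, the minipig column held the scanner values of the conventional array minus a constant, and the conventional pig column those of the minipig array. Over the probes of the 4 genes that the table lists, the largest departure from this was 4.95e-07 on the log2 scale. Breeds are named here as on the scanner files, and all directions turn round if the table is the one labelled correctly. Since each breed had 1 array, differences between the breeds could not be checked against replicates or tested.

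Levels are log2 intensities above the 75th percentile of the array, and differences are conventional pig minus minipig on this log2 scale. The only replication was technical. Repeated spots of the same probe (42 probes) had an SD of 0.20 for minipigs and 0.15 for conventional pigs, so that a difference of 1 spot from another has an SD of 0.25, called the spot SD below. The 75th percentiles of the arrays differed by 1.04-fold, no spot was saturated, and each of the 14 probes stood well above background on each array. The brightness of a probe also depends on its sequence, so levels were compared between arrays and not between probes or genes. Sums of levels over genes, given for tissue markers below, therefore weigh genes with bright probes most. A gene past 2-fold on an array is one that was at least 2-fold higher there than on the other.

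STAR was 8.41-fold higher on the conventional array, a log2 difference of 3.07. On the minipig array its 6 probes had levels of 3.65, 3.48, 5.06, 3.25, 4.38 and 4.78. In the same probe order the levels on the conventional array were 7.00, 6.64, 8.14, 6.31, 7.37 and 7.76. Each of the 6 probes was thus higher on the conventional array than on the minipig array.

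The STAR probes differed in brightness by up to 1.82 on the log2 scale on the minipig array, but their log2 differences between the arrays, from 2.98 to 3.36, spanned only 0.37 (SD over probes 0.14, n = 6 probes on 1 pair of arrays). As intensities the probes read from 4687 to 16501 on the minipig array and from 40619 to 144795 on the conventional array. Their spots were spread from row 81 to row 471 of the array. Of the 2363 genes with a value, 21 (0.889%), STAR included, had a difference at least as high.

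CYP11A1, the enzyme that opens the pathway, was 6.20-fold higher on the conventional array, a log2 difference of 2.63. Its 3 probes had levels of 2.15, 2.73 and 4.001 on the minipig array. The corresponding levels on the conventional array were 5.06, 5.36 and 6.61, each higher than that of the same probe on the minipig array. The log2 differences of the probes were 2.91, 2.63 and 2.61, and their SD was 0.17. A difference at least this high was seen for 32 genes, or 1.35% of those with a value.

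HSD3B1, which completes the conversion to progesterone, was measured by 2 probes and was 8.66-fold higher on the conventional array, a log2 difference of 3.11. The probe levels of -0.37 and 1.56 on the minipig array stood against 2.96 and 4.46 on the conventional array. Both probes were higher on the conventional array. The probes gave log2 differences of 3.33 and 2.90, which lay 0.43 apart. A difference this high was seen for 19 genes (0.804%), HSD3B1 included.

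FDX1, the electron donor of CYP11A1, stood apart from the other three. It was 1.55-fold higher on the conventional array, a log2 difference of 0.63. Its 3 probes read 6.02, 6.14 and 5.38 for minipigs and 6.85, 6.77 and 5.91 for conventional pigs. Every FDX1 probe was higher on the conventional array, by 0.83, 0.63 and 0.53. The difference of the gene, a median over probes, was 2.51 times the spot SD of single spots, against 12.1 times for STAR. A difference as high as that of FDX1 was found for 21.9% of the named genes.

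**Figure D1:**
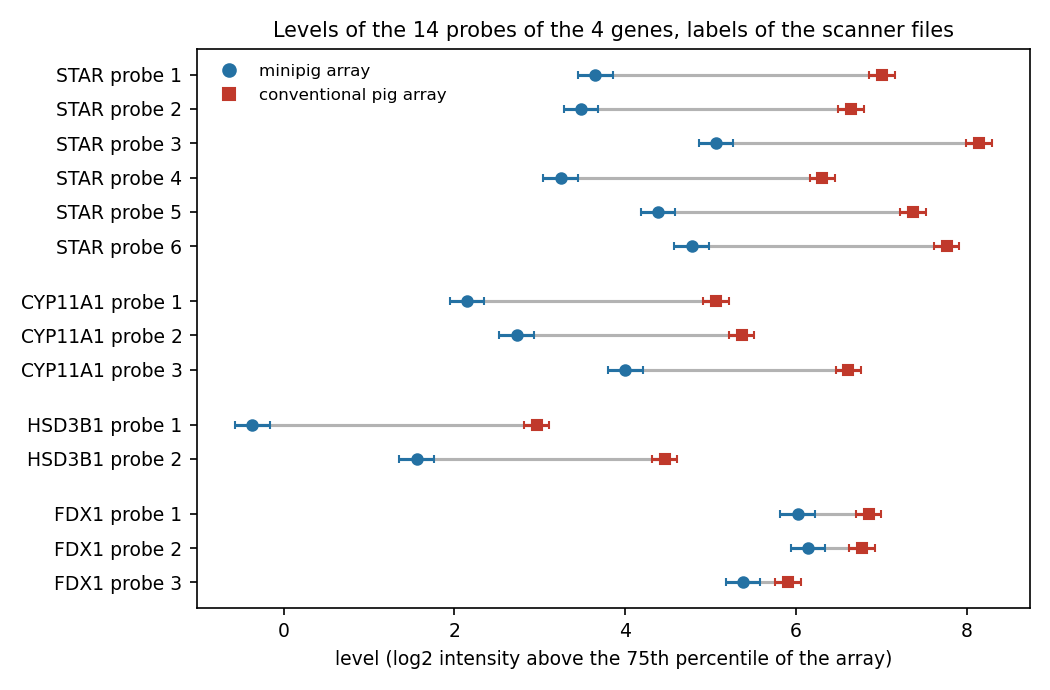
Levels of the 14 probes on the minipig array (circles) and the conventional array (squares), in log2 intensity above the 75th percentile of each array; bars are 1 SD between repeated spots of other probes on that array (0.20 and 0.15), not a spread between animals. The pairs of STAR, CYP11A1 and HSD3B1 lie between 2.61 and 3.36 apart, and those of FDX1 between 0.53 and 0.83.

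All 14 probes were higher on the conventional array. Of these, 11 differed by 2-fold or more in that direction and 0 in the other, while among all 38883 probes with a difference or a bound 7.48% and 8.94% did. The same 11 probes, all those of STAR, CYP11A1 and HSD3B1, were also at least 6-fold higher, as were 0.669% of all probes. At 1.5-fold the count was 13, against 15.5% of all probes, and at 1.3-fold all 14 passed, against 22.4%. The FDX1 probes therefore passed cutoffs that many probes passed, and the other probes a cutoff that few passed. Because STAR, CYP11A1, HSD3B1 and FDX1 were picked when earlier findings from the same arrays were known, these shares only describe their rank.

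Bright probes leaned to the conventional array. Among the 6254 probes at least as bright on average as the dimmest of the 14, a set chosen after the values were seen, 17.9% were past 2-fold toward the conventional array and 4.86% toward the minipig array. At 6-fold these shares were 1.79% and 0.783%. The median log2 difference of all probes was -0.12, and relative to it the differences were 3.19 for STAR, 2.75 for CYP11A1, 3.23 for HSD3B1 and 0.75 for FDX1. Probes higher on the minipig array made up 54.4% of all probes past 2-fold, but 40.2% of them with median centring and 41.1% with the normexp correction of background. Under each of these settings the same number of probes of the 4 genes, 11, was past 2-fold.

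**Figure D2:**
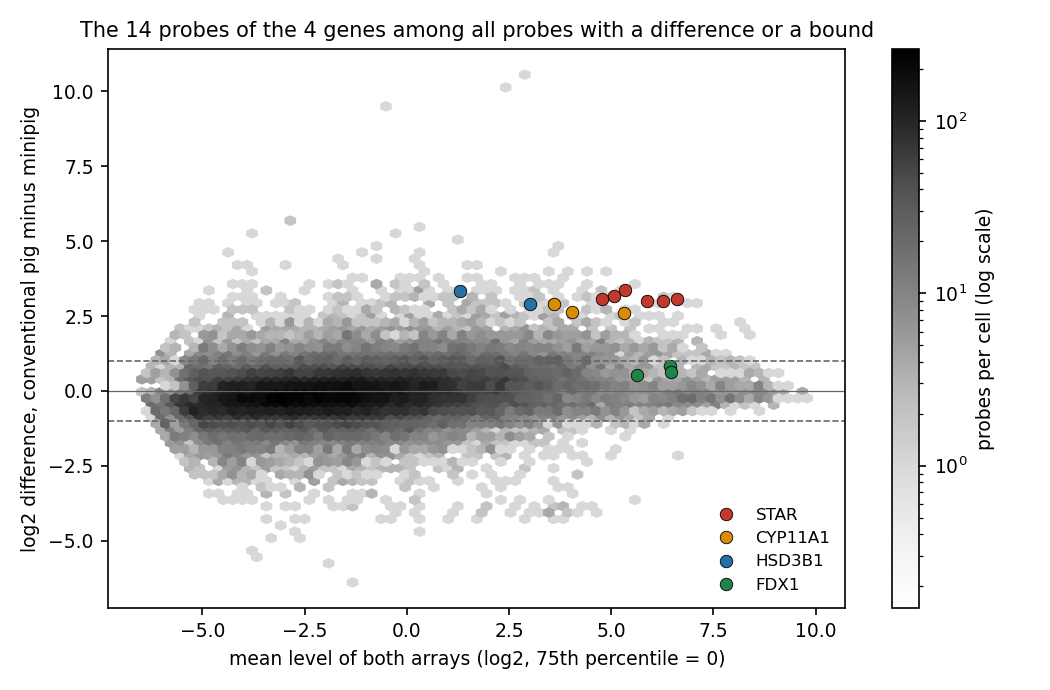
Log2 difference (conventional pig minus minipig) against the mean level of both arrays for all 38883 probes with a difference or a bound (grey cells, darker for more probes, log scale), with the 14 probes of the 4 genes as coloured points and dashed lines at 2-fold. The STAR, CYP11A1 and HSD3B1 probes lie between 2.61 and 3.36, at the upper edge of the cloud, and the FDX1 probes lie inside it, below 2-fold.

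The contrast between genes within the arrays does not depend on a constant that scales a whole array. The difference of STAR exceeded that of FDX1 by 2.44 on the log2 scale, or 5.41-fold, and all 18 pairs of a STAR and an FDX1 probe gave this order, by 2.15 to 2.83. For CYP11A1 against FDX1 the excess was 1.997, with all 9 probe pairs in this order. For HSD3B1 against FDX1 it was 2.48, again in all 6 pairs. Between the lowest probe of the first 3 genes and the highest FDX1 probe the gap was 1.78, where a contrast of 2 such differences (4 single spots) has an SD of 0.36.

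The order among the 3 genes with large differences was not resolved. HSD3B1 and STAR differed by 0.04, and 7 of 12 probe pairs put STAR higher. CYP11A1 lay 0.44 below STAR and 0.48 below HSD3B1, which is 1.23 and 1.35 times that SD of 0.36. The SD is that of single spots, and none was computed for medians over probes. Every one of the 18 pairs of STAR and CYP11A1 probes had STAR higher, the closest by 0.07, whereas in 1 of 6 pairs CYP11A1 was above HSD3B1.

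Of 134 gene symbols listed around this pathway, some of them synonyms of the same gene, 61 could be named on the arrays and had a value. Higher by 2-fold or more on the conventional array were 22 of them (36.1%) and on the minipig array 9 (14.8%), where 11.7% and 7.96% of all named genes were. Their median log2 difference was 0.28, and that of all named genes was 0.04. These lists were compiled when earlier findings from the same arrays were already known. Their excess over all named genes is therefore not independent of those findings and was not tested. The lists cover fewer than 80% of their genes, so they describe only the genes measured.

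Of the electron transfer partners, 3 of 8 listed symbols had a value, and the reductase FDXR, which feeds electrons to FDX1, was not among them. CYB5A, a cytochrome b5 that supports later P450 and reductase steps, had a log2 difference of 2.36 over 6 probes that ran from 2.06 to 2.63. Its level was 5.19 in the minipig hybridisation and 7.56 in the other. CYB5B, the form of the outer mitochondrial membrane, was at 1.54. POR, which donates electrons to the P450 enzymes of the endoplasmic reticulum, lay the other way at -0.84, and its 3 probes ran from -1.08 to -0.11.

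Among genes tied to cholesterol entry into mitochondria, 10 of 15 had a value, with 4 past 2-fold on the conventional array and 0 on the minipig array. ACSL4, an acyl-CoA synthetase of arachidonic acid, had a log2 difference of 3.02 over 6 probes, from 2.78 to 3.27. DBI, the acyl-CoA binding protein, was at 2.20, and the outer membrane channels VDAC1 and VDAC2 were at 1.10 and 1.09. After quantile or loess normalization VDAC1 (0.83 and 0.90) and VDAC2 (0.85 and 0.92) were short of 2-fold, which left 2 genes past it. The other six were all short of 2-fold. VDAC3 was at 0.42, TOMM20 at 0.37, ACBD3 at 0.24 and the phosphate carrier SLC25A3 at 0.14. TSPO, the translocator protein, was at -0.24, and STARD3, a STAR-related protein of late endosomes, was at -0.35. The large difference of STAR was thus not shared by STARD3 or TSPO.

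Cholesterol supply ran with STAR more often than against it. Of 11 uptake and storage genes with a value, 6 were past 2-fold on the conventional array and 0 on the minipig array, with a median log2 difference of 1.16. SCP2, a sterol carrier, was at 4.52 from 1 probe and STARD4, a soluble sterol carrier of the STAR family, at 3.27 from 1 probe, while APOE (-0.22) and CAV1 (-0.29) were the lowest. SCARB1, the receptor for high-density lipoprotein, was at 2.46, though its brightest probe gave 1.85, and it was picked after its value was seen. Of 7 cholesterol synthesis genes with a value, 5 were past 2-fold on the conventional array, with a median of 2.78. The highest was MSMO1, a sterol demethylation enzyme, at 3.82. SREBF1 (0.49) and INSIG2 (-0.42), regulators of that synthesis, were the lowest.

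**Figure D3:**
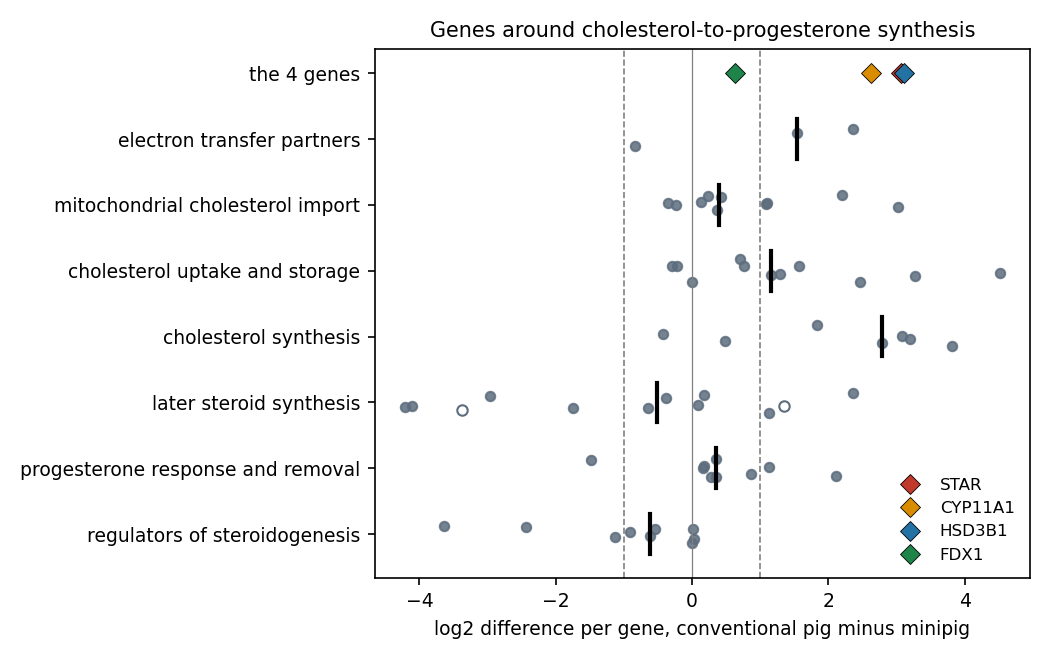
Log2 difference per gene (conventional pig minus minipig) for the 4 genes (diamonds) and for the genes with a value in 7 lists around the pathway (circles, open where a probe gave only a bound, with a black bar at the list median and dashed lines at 2-fold). The cholesterol synthesis list has its median at 2.78, and the later steroid synthesis and regulator lists have medians below 0.

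Steps after progesterone did not follow it. Of 12 genes of later steroid synthesis and conversion with a value, 3 were past 2-fold on the conventional array and 5 on the minipig array, with a median log2 difference of -0.51. CYP17A1, which turns progestins into androgens, had a log2 difference of -1.74, but its probes disagreed in size, at -2.49 and -0.99. CYP19A2 (-4.22) and CYP19A3 (-4.11), aromatases that make estrogens, were far lower on the conventional array, whereas CYP19A1 was at 0.09. The 3 aromatase genes are close paralogs, and whether their probes bind each other's transcripts was not tested. At the other end HSD11B2, which inactivates glucocorticoids, was at 2.36 and HSD17B4, a peroxisomal enzyme of fatty acid oxidation, at 1.13, which became 0.80 after quantile and 0.90 after loess normalization.

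In the list for progesterone response and removal, 9 of 14 genes had a value, 2 of them past 2-fold on the conventional array and 1 on the minipig array. PGRMC1, a membrane-associated progesterone receptor component, was at 2.12 and PAQR7, a membrane progestin receptor, at 1.13. CBR1, a carbonyl reductase, was at -1.49, and PAQR8 was at 0.16, with probes on both sides of 0.

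The regulators of these genes, a list that mixes activators with the repressor NR0B1, did not lean to the conventional array. Of 9 regulators with a value, out of 29 listed, 0 were past 2-fold on the conventional array and 3 were past 2-fold on the minipig array, with a median log2 difference of -0.62. LHCGR, the luteinizing hormone receptor that drives STAR and CYP11A1 through cyclic AMP, was at -0.62, with levels of 3.30 for minipigs and 2.68 for conventional pigs. NR5A1, the nuclear receptor known to activate promoters of steroidogenic genes, was at 0.02, but its 3 probes ran from -0.72 to 0.75. NR0B1, a repressor of NR5A1, was at -2.43 from 1 probe, and at -1.18 after normexp correction. FSHR, the follicle-stimulating hormone receptor of granulosa cells, was the lowest at -3.63. PRKAR1A, a regulatory subunit of the cyclic AMP-dependent kinase, was at 0.01.

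Because luteal tissue is rich in the 4 gene products, markers of the tissues an ovary holds were set beside them. In bulk tissue, fewer cells of a type and less RNA per cell cannot be told apart. Of 14 luteal markers other than the 4 genes, 11 had a value, of which 5 were past 2-fold on the conventional array and 1 on the minipig array. Their median log2 difference was 0.78, and their summed level, in units of the 75th percentile of the array, was 219 for minipigs and 498 for conventional pigs. Without TIMP1, an inhibitor of metalloproteinases left out after its values were seen, the sums were 192 and 246. SCP2 was the highest, and INSL3, a hormone of theca cells that is in this list and that of theca, was the lowest at -3.76. SCP2, SCARB1 and PGRMC1, among those past 2-fold, were already counted in the pathway lists above. After their values were seen, 3 further markers were picked. PTGFR, the prostaglandin F2-alpha receptor of luteal cells, was at 2.48, while the luteal peptides RLN2 (0.45) and OXT (0.33) were short of 2-fold. The luteal list was therefore mixed, with some genes as far apart as STAR and with peptide genes close to equal.

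Most follicle markers ran the other way. Of 12 granulosa markers with a value, 9 were past 2-fold on the minipig array, or 6 with median centring, and 0 on the other array. Among all named genes 7.96% were past 2-fold on the minipig array, but the marker lists too were picked when earlier findings were known. FSHR, GATA4, HSD17B1 and CYP19A3, all past 2-fold, were also counted among the regulators or the later steroid genes, so these counts overlap. INHBA was counted though its 2 probes disagreed in direction, at -3.91 and 0.37. The summed level of the granulosa markers was 176 for minipigs and 58.8 for conventional pigs, with IGFBP2 at -4.31. Without SERPINE2 the sums were 87.7 and 20.5. INHBA and SERPINE2 were picked after their values were seen. Of 5 theca markers, 3 were past 2-fold on the minipig array, while THY1, named after its value was seen, went the other way at 0.68. The sum was 83.0 there and 12.6 on the conventional array, which became 11.1 and 7.23 without INSL3, measured by 1 probe. Of the rest LHCGR had the highest levels, and it was short of 2-fold. It is also in the luteal and regulator lists, and CYP17A1 was also counted among the later steroid genes. Of 7 oocyte markers, 4 were past 2-fold on the minipig array, led by KIT (-2.04) and MOS (-1.75). All of these markers were well above background on both arrays by at least 1 probe.

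The other tissue types shared no direction. The 4 endothelial markers were all higher on the conventional array but short of 2-fold, with FLT1 at 0.95 and ENG at 0.80, although FLT1 was past 2-fold with median centring, quantile and loess normalization (1.11 in each). Of 6 immune markers 1 was past 2-fold, CD14 at 1.04, which was 0.80 after normexp correction, with AIF1 at 0.74. Of 4 smooth muscle markers 2 were past 2-fold, DES (-1.998) and CNN1 (-1.32), both higher on the minipig array. The median of that list was -0.76. CYP21A2, the adrenal enzyme and the only one of 5 listed adrenal symbols with a value, was dim on both arrays, with levels of -3.24 and -3.62. The part of tissue composition in the differences of the 4 genes was not tested.

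**Figure D4:**
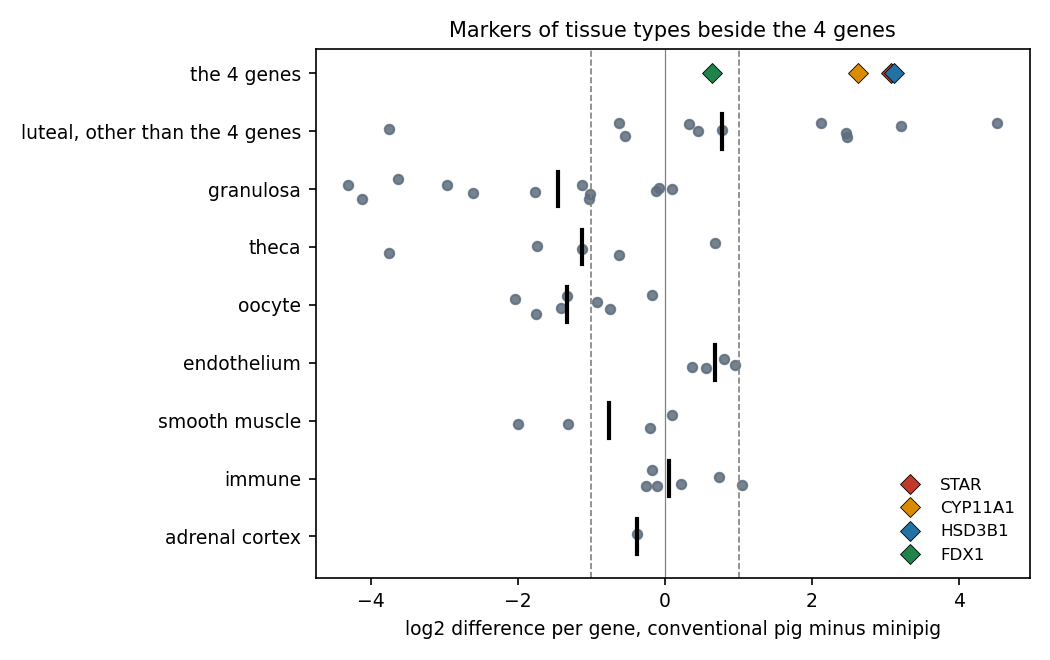
Log2 difference per gene (conventional pig minus minipig) for the 4 genes (diamonds) and for tissue markers with a value (circles, with a black bar at the list median and dashed lines at 2-fold). Luteal markers range from -3.76 to 4.52, and granulosa, theca and oocyte lists have their medians below -1.

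The genes closest to the 4 in their difference were taken among 1156 genes with at least 2 probes, all well above background on both arrays. Over only these 2 arrays the measure of likeness is the distance between log2 differences. Nearest to STAR were SQLE (3.08), ACSL4 (3.02) and AREG (3.01). Those near HSD3B1 included SQLE and TIMP1 (3.20), although the probes of TIMP1 ran from 1.81 to 3.21. For CYP11A1 they were SLC30A5 (2.64), GLRX (2.59) and SCD (2.68). Nearest to FDX1 were RAB11A (0.64), CAMK2D (0.64) and CAST (0.63), all within 0.004 of it. Many genes share a difference of that size, and few are as far out as STAR.

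Other processing left the picture of the 4 genes in place. One of the alternatives was the deposited table with its columns exchanged to follow the scanner labels, which holds the same signals less a constant. By its own labels its differences have the opposite sign. Under 10 alternatives, this one included, the log2 difference of STAR lay between 2.79 and 3.23, that of CYP11A1 between 2.32 and 2.79 and that of HSD3B1 between 2.90 and 3.27. For FDX1, which the deposited table does not list, 9 alternatives gave 0.41 to 0.79. FDX1 stayed short of 2-fold and the other three past 2-fold in each of them. Some alternatives could not have changed this. The filters on dim probes left every value as it was, because all 14 probes were well above background on each array. Keeping outlier spots shifted each gene by only -0.0006, and the deposited table lists only probes at least 2-fold apart. The intensities as deposited, with no scaling, gave 8.72-fold for STAR, 6.43-fold for CYP11A1, 9.09-fold for HSD3B1 and 1.61-fold for FDX1.

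**Figure D5:**
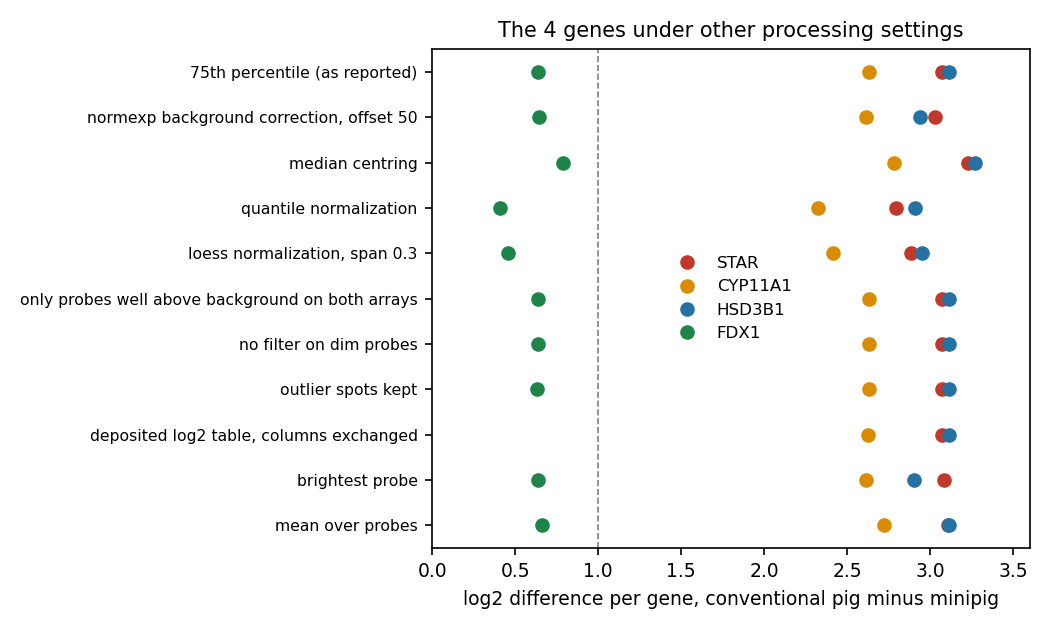
Log2 difference (conventional pig minus minipig) of the 4 genes under the reported scaling and 10 other settings, each in 1 row, with a dashed line at 2-fold; the columns of the deposited table were exchanged to follow the scanner labels, and it holds no FDX1 probe. FDX1 lies between 0.41 and 0.79 and the other genes between 2.32 and 3.27.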

How the data were processed

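RNA of ovary without corpora lutea was hybridised by the authors to 1 Cy3 array per breed and read with Agilent Feature Extraction 10.7.3.1 (submitters' processing notes). The deposited scanner files give each spot an intensity that the authors' software corrected for background and spatial trend, not normalized between arrays, with other flags of 0 or 1 per spot, per the file headers. Deposited log2 values for 5617 probes, made by the authors with GeneSpring by a method not given in the sources used here, list only probes at least 2-fold apart.

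Control and outlier spots were left out, spots of a probe were averaged in log2, and levels were set relative to the 75th percentile of each array. A gene's value is the median over its probes. Accessions were matched to the RefSeq table of Sscrofa11.1, which named 5577 of 43597 probes, and no coordinates were taken from it. Where 1 array only was well above background, the difference is a bound against the lowest such signal on the other. The members and gene lists were chosen with earlier results of these data known. Named genes are the 4 genes, the 2 highest and 2 lowest of each list, all genes of the electron transfer and import lists, LHCGR, NR5A1, CYP17A1 and CYP19A1, the 2 largest differences of each marker list, and the 3 nearest genes per member, of which 1 gene is not reported here. SCARB1, PTGFR, RLN2, OXT, INHBA, SERPINE2 and THY1 were added after their values were seen. No p-value was computed, and the number of arrays limits the precision. Scripts ran in Python 3.11.15 with statsmodels 0.14.6 and R 4.3.3 with limma 3.58.1, and were tested on simulated data.

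Alternatives were normexp (offset 50, on median spot signals), median centring, quantile and loess normalization (span 0.3), other filters on dim or outlier spots, the deposited table with its columns exchanged, the brightest or mean probe, and thresholds of 1.5-fold and 3-fold. Probe and promoter sequences were not used here, so no motifs were counted.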

Additional observations from a re-analysis of the deposited data

How the results depend on the processing

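Quantile normalization moved STAR to 2.79 and CYP11A1 to 2.32 on the log2 scale, more than the SD of 0.25 between single spots, with the direction kept. Of the genes around the pathway, 20 were past 3-fold where 31 were past 2-fold. The scalings and filters put 18 to 23 genes past 2-fold toward the conventional pig array and 8 or 9 toward the minipig array. The other 58 values for the 4 genes and the counts stayed within the spot SD or within 1.5 times. They include settings that could not move a value, such as the filters on dim probes. The further genes were those that the naming rule chose, with SCARB1, PTGFR, RLN2 and OXT, which were picked after their values were seen. For them 539 values stayed within that SD and 37 moved beyond it, again with settings included that could not move a value. None past 2-fold changed direction, with the columns of the deposited table exchanged to follow the scanner labels. Of the 35 such genes past 2-fold, 11 rest on 1 probe, among them SCP2, STARD4, INSL3, CYP19A2 and FSHR. Median centring shifted all differences by 0.15, loess and quantile normalization their median by 0.11. Naming probes by a gene name column or platform table was not run, since neither was at hand. No paired analysis was possible because each breed had 1 array.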
